A study of Mus musculus with 4 samples.

Results

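The genes that release arachidonate from membranes and turn it into leukotrienes and prostaglandins were followed in mouse leukemia stem cells with and without Hif1a. The set comprised Pla2g4a, Pla2g4c, Alox5, Alox5ap, Alox15, Lta4h, Ltc4s, Ptgs1, Ptgs2 and Hpgds, and each gene was read on the probe set with that symbol alone and the highest mean. Of these 10 genes, 9 were measured, among 19938 genes in all. Each of the 9 had 1 such probe set, and Ptgs1, a cyclooxygenase, was not analysed here. The genes were grouped with earlier results of these data known, so their differences describe these arrays and are no independent evidence.

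Cytosolic phospholipases A2 free arachidonate from membrane lipids. The 5-lipoxygenase Alox5, helped by its membrane partner Alox5ap, oxidises it to an unstable leukotriene that Lta4h or Ltc4s turns into the active forms, and cyclooxygenases open the branch to prostaglandins. These lipids are made above all by granulocytes, mast cells and macrophages, and Alox5 has been reported to be needed by leukemia stem cells in the mouse model used here.

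The leukemia stem cells came from Hif1a-/- donor marrow or from WT donor marrow of the C57BL/6 (B6) strain, with 2 samples each and an age of 8 weeks per the labels. All 4 samples carried BCR-ABL, the fusion kinase of chronic myeloid leukemia, together with green fluorescent protein: marrow of 5-fluorouracil-treated donors was infected with a retrovirus for both and given to B6 recipients. Fluorescent marrow cells without lineage markers and with c-Kit and Sca-1 were sorted 14 days after transplantation, and total RNA of each sample was hybridised to 1 whole-transcript array from Affymetrix. The labels call the samples biological replicates but do not say whether they came from separate or pooled animals, nor how or in which cells Hif1a was deleted, so the spread behind each p-value may be technical. Values are log2 expression after RMA, which draws differences of dim genes together, and the levels of different probe sets cannot be set against each other.

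Hif1a itself read 11.25 and 11.39 on Hif1a-/- replicates 1 and 2, against 11.34 and 11.50 on WT replicates 1 and 2. The groups overlapped. A probe set spread over the transcript can keep its signal when exons are lost, but whether this held here was not tested. Of the markers of the sorted gate, Kit lay between 10.61 and 10.95 in Hif1a-/- cells, against 10.32 and 11.07 in WT cells. Gata2 lay between 12.94 and 13.03 in Hif1a-/- cells, against 12.83 and 13.19 in WT cells. Cd34 read 10.70 and 11.70 on Hif1a-/- replicates 1 and 2, against 10.31 and 12.29 on WT replicates 1 and 2. The 6 measured gate markers averaged 10.02 and 10.225 on the Hif1a-/- arrays, against 9.69 and 10.59 on the WT arrays. Their median gap, WT replicate 2 minus WT replicate 1, was 0.98. Between genotypes the gate markers ran from -0.37 for Mecom to 0.42 for Slamf1, all 6 with overlap. Mecom differed by 0.15 without WT replicate 2, and Slamf1 by -0.04 without WT replicate 1. Ly6a, which encodes Sca-1, was not analysed here. Markers of mature cells also gave signal: the 9 neutrophil markers averaged 12.15 and 12.04 on the Hif1a-/- arrays, against 13.12 and 11.19 on the WT arrays. The WT arrays stood further apart (correlation 0.981 over genes) than the Hif1a-/- arrays (0.995). In 75.5% of all genes the gap between the WT arrays was larger than the difference between the genotypes. A gap between 2 single arrays varies more than a difference of 2 means. It would therefore be the larger in most genes even with equal spread and no genotype effect. In RNA of sorted cells, fewer cells of a type and less RNA per cell cannot be told apart.

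Between genotypes, Pla2g4c was the member that stood out, reading 2.23-fold higher in Hif1a-/- cells, while Alox5 read nearly alike in both. Of the 9 measured members 3 had a higher and 6 a lower mean in Hif1a-/- cells (38.6% of all genes had a lower one), with a median difference of -0.15 on the log2 scale, beside 0.03 over all genes. None passed limma's test after Benjamini-Hochberg adjustment over all genes at a threshold of 0.05 (0 of 9, smallest adjusted p 0.999), where 0% of all genes passed. At an unadjusted limma p under 0.05 there was 1 of 9, Pla2g4c, which read higher, beside 1.68% of all genes (0.697% higher and 0.978% lower). The arrays of the genotypes did not overlap in 4 of 9 members, Pla2g4c and Ltc4s being higher and Pla2g4a and Lta4h lower on the Hif1a-/- arrays, beside 24.8% of all genes without overlap. With 2 arrays a genotype, the smallest two-sided p of an exact permutation test is 0.333, so the p-values below rest on limma's variance pooled over genes.

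**Figure D1:**
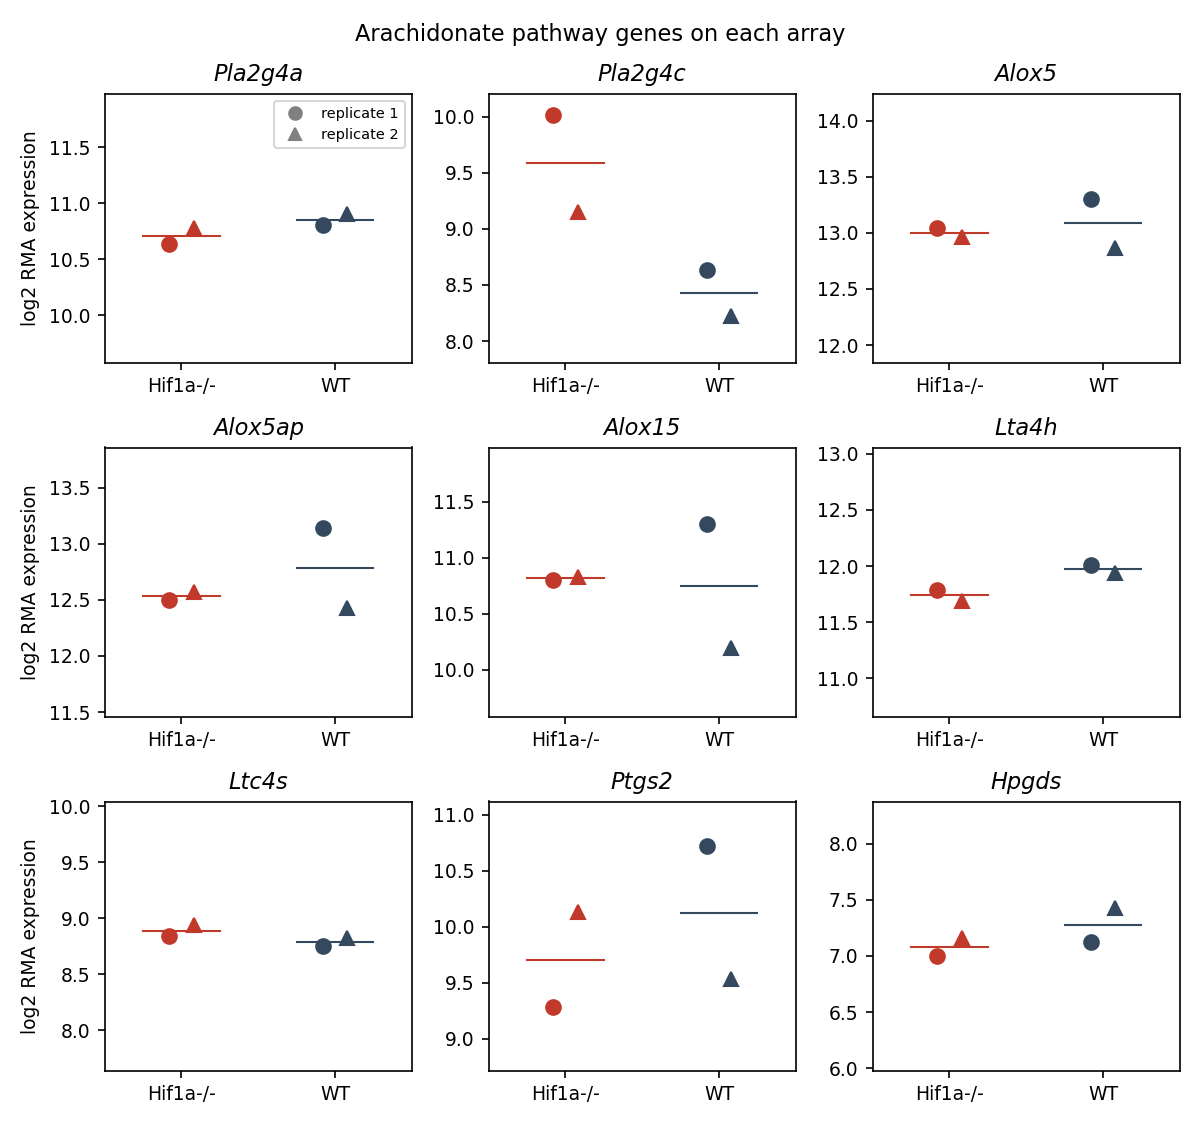
Log2 RMA expression (y axis, each panel spanning the same range around the gene's mean) of the 9 measured genes on the 2 Hif1a-/- arrays (red, left) and the 2 WT arrays (blue, right). Circles are replicate 1, triangles replicate 2 and lines group means; Pla2g4c is higher on both Hif1a-/- arrays, while the Hif1a-/- values of Alox5, Alox5ap and Alox15 fall between the WT values.

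Of the enzymes that release arachidonate, Pla2g4c encodes a membrane-bound cytosolic phospholipase A2 that, as known from the human protein, works without calcium. It lies on chromosome 7 at 13311507 to 13360674 (GRCm38.p6). Pla2g4c read 10.01 and 9.15 on Hif1a-/- replicates 1 and 2, against 8.63 and 8.23 on WT replicates 1 and 2. Both Hif1a-/- values were above both WT values, but replicate 1 of the Hif1a-/- arrays stood well above replicate 2. The difference was 1.15 ± 0.29 (SE) and its 95% interval ran from 0.45 to 1.85. The limma p was 0.00637 unadjusted and 0.999 adjusted over all genes. It ranked 37 among 19938 genes by p, and without Hif1a-/- replicate 1 the difference was 0.72.

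The mean of red cell precursor markers stood in the same order over the arrays as Pla2g4c, as did Rhag and Sptb alone but not Alas2, Epor and Klf1. The 5 measured erythroid markers of 8 listed averaged 10.33 and 10.01 on Hif1a-/- replicates 1 and 2, against 9.68 and 9.60 on WT replicates 1 and 2. All 5 had a higher mean in Hif1a-/- cells, 4 of them without overlap (15.7% of all genes lay above), from 0.13 for Alas2, an enzyme of heme synthesis, to 0.84 for Rhag, a red cell membrane protein. Without Hif1a-/- replicate 1 the difference of Rhag was 0.43, and without Hif1a-/- replicate 2 that of Alas2 was -0.04. The part of such cells in the Pla2g4c values was not tested. A search for the genes nearest to Pla2g4c compared values over the 4 arrays, each minus the gene's own mean. It left out genes with Gm, Rik or LOC symbols, olfactory and vomeronasal receptors and small RNAs. The nearest were Tlcd4 at a distance of 0.30 on the log2 scale, Rhag at 0.35 and the chemokine gene Cxcl10 at 0.36. None of the genes searched lay within 0.2 of Pla2g4c, while 1406 lay within 0.2 of Alox5. The nearest to Alox5 were Ralb, Cdkn3 and Fam118b at 0.014, 0.016 and 0.019. The distance is not scaled to each gene's spread, so a gene with large differences has few others near it. With 4 arrays such likeness is a description only.

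The start-site windows of Pla2g4c and Alox5 are shown because Pla2g4c had the largest difference of the set and Alox5 is the gene reported for these leukemia cells, beside those of Ptgs2 and of Bnip3, a known HIF-1 target. All are RefSeq sequence of GRCm38.p6, read 5′ to 3′ along the gene, from 250 bases before to 50 after an annotated start. Capitals mark ACGTG or GCGTG on either strand, the core letters that HIF complexes bind. The windows are chr7:13325417-13325716 and chr7:13329072-13329371 (plus strand) for Pla2g4c, chr6:116461129-116461428 (minus strand) for Alox5, chr1:150099781-150100080 (plus strand) for Ptgs2 and chr7:138909457-138909756 (minus strand) for Bnip3.
Pla2g4c first window: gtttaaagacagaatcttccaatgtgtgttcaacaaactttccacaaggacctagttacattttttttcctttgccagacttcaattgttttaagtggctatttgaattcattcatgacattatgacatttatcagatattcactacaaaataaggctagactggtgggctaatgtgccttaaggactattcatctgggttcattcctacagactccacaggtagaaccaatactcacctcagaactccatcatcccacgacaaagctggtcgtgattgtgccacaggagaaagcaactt
Pla2g4c second window: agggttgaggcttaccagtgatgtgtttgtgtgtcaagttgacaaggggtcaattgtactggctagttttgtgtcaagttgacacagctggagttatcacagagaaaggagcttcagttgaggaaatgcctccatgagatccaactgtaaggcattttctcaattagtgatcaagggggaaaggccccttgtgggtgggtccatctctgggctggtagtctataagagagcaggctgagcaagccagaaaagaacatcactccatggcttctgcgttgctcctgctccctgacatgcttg
Alox5 window: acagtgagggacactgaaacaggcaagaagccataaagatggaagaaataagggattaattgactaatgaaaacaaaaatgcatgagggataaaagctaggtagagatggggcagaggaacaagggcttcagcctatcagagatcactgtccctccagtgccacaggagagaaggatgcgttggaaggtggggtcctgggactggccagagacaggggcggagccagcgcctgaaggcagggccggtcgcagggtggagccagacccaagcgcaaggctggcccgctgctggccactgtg
Ptgs2 window: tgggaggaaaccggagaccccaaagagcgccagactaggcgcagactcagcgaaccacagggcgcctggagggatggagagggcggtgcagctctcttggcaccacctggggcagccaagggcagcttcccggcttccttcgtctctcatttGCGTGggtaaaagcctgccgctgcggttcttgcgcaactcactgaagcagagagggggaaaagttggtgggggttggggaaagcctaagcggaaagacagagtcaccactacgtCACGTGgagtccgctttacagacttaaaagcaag
Bnip3 window: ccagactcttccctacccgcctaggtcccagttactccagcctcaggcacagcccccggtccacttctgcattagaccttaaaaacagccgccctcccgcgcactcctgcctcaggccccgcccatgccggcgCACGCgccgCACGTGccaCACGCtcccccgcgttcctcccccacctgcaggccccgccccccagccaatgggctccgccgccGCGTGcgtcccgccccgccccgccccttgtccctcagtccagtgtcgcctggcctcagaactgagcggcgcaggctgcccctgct
Both Pla2g4c windows and the Alox5 window held neither motif. The Pla2g4c windows lie inside the gene, whose span begins at 13311507, so its outer 5′ end was not searched. The Ptgs2 window held GCGTG 98 bases before the start and, 17 bases after it, the letters CACGTG, which read as ACGTG on both strands in overlap. The Bnip3 window held 5 matches, 2 of them the same overlapping reading of CACGTG. Of the 10 listed genes 8 had a window in the table, 10 windows in all, and 2 windows (Ptgs2 and the first of Pla2g4a) held a motif, beside 43.8% of all 32851 windows. On the brighter of its 2 probe sets, Bnip3 read 9.51 and 9.50 on the Hif1a-/- arrays, against 10.82 and 10.76 on the WT arrays.

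The other phospholipase of the set, Pla2g4a, is the calcium-dependent enzyme that supplies most arachidonate for leukotrienes. Its values were 10.63 and 10.77 on Hif1a-/- replicates 1 and 2, against 10.80 and 10.90 on WT replicates 1 and 2. The groups did not overlap, but the higher Hif1a-/- value lay close under the lower WT value, and the difference was -0.15 ± 0.13 (SE) with a 95% interval from -0.45 to 0.16. Among 17 measured genes of other phospholipases and the inhibitor Anxa1, of 18 listed, 10 read higher and 7 lower, 5 without overlap (24.8% of all genes), and 0 passed the test. Anxa1 had the largest difference of them, -0.24, with 12.02 and 11.86 on the Hif1a-/- arrays, against 12.87 and 11.49 on the WT arrays, so that both Hif1a-/- values lay between the WT values. It differed by 0.45 without WT replicate 1 and by -0.93 without WT replicate 2.

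Alox5 makes the first step of leukotriene synthesis. It read 13.04 and 12.96 on Hif1a-/- replicates 1 and 2, against 13.30 and 12.86 on WT replicates 1 and 2. Both Hif1a-/- values lay between the WT values. The difference was -0.08 ± 0.17 (SE), its 95% interval ran from -0.50 to 0.33, and limma gave an unadjusted p of 0.649.

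Alox5ap, the membrane protein that presents arachidonate to Alox5, showed the same arrangement. It read 12.50 and 12.57 on the Hif1a-/- arrays, against 13.14 and 12.43 on the WT arrays, a difference of -0.24 ± 0.23 (SE). Alox15, the lipoxygenase of mouse macrophages and eosinophils, read 10.80 and 10.83 on the Hif1a-/- arrays, against 11.30 and 10.20 on the WT arrays. The Hif1a-/- arrays nearly coincided while the WT arrays lay 1.11 apart, so the difference of 0.06 ± 0.33 (SE) had an interval from -0.73 to 0.86. It depended on which WT array was used: 0.62 without WT replicate 1 and -0.49 without WT replicate 2, with adjusted limma p of 0.0168 and 0.0300 in opposite directions. Both Hif1a-/- values lay between the WT values in these 3 of 9 members and in 32.9% of all genes.

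**Figure D2:**
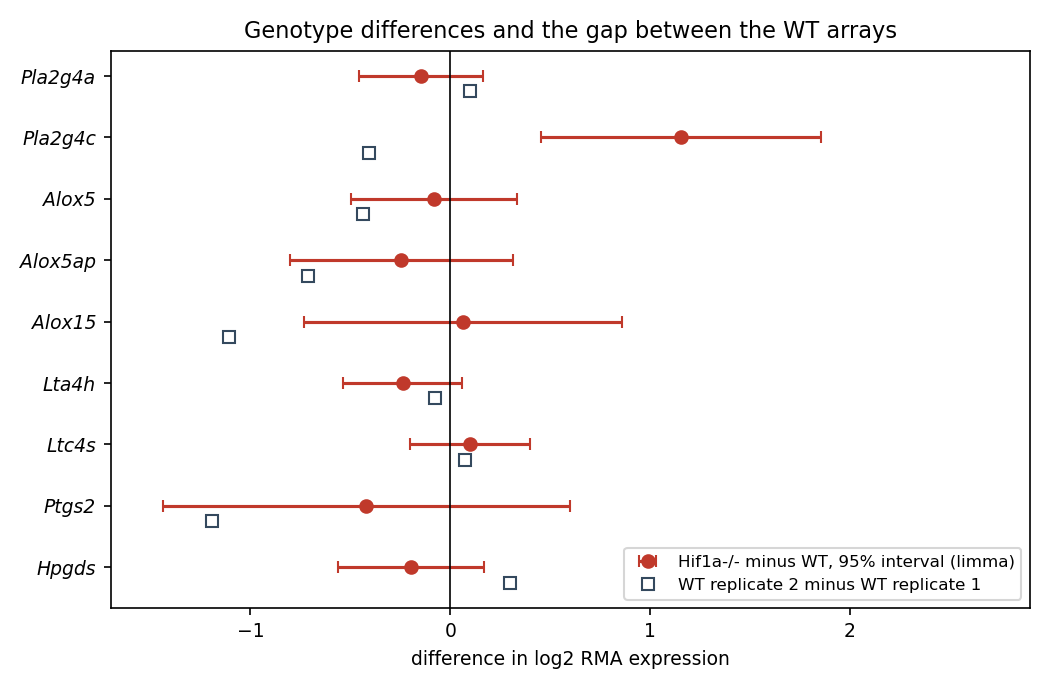
Difference in log2 RMA expression (x axis) for the 9 measured genes. Red points are Hif1a-/- minus WT with limma's 95% interval, and open squares are WT replicate 2 minus WT replicate 1; the interval lies above 0 for Pla2g4c and spans 0 for the other 8 genes, and the square for Alox15 lies at -1.11.

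Neutrophil markers stood apart on the WT arrays in the same direction as Alox5, Alox5ap, Alox15 and Ptgs2. WT replicate 2 minus WT replicate 1 was -0.44 for Alox5, -0.71 for Alox5ap, -1.11 for Alox15 and -1.19 for Ptgs2, beside a median of -2.05 over the 9 neutrophil markers and -0.03 over all genes. The smallest gap among them was that of Ngp, a granule gene, with 13.81 and 13.08 on WT replicates 1 and 2, and the largest that of the collagenase gene Mmp8, with 12.09 and 9.53. Between genotypes the 9 markers went both ways, from -0.32 for Mmp8 to 0.17 for Camp, all with overlap. All 9 were higher in Hif1a-/- cells without WT replicate 1 and all 9 lower without WT replicate 2. This direction was not particular to them. Of the 9 members, 6 read higher on WT replicate 1, Pla2g4c (-0.41) and Lta4h (-0.08) included, beside 54.5% of all genes. The median gap was -0.43 over the B cell markers, while it was 0.98 over the sorted gate markers. On the Hif1a-/- arrays, replicate 2 minus replicate 1 was 0.84 for Ptgs2, -0.08 for Alox5, 0.07 for Alox5ap and 0.03 for Alox15. The median over the 9 neutrophil markers was -0.08 there. The part of neutrophil RNA in the spread of Alox5, Alox5ap, Alox15 and Ptgs2 was not tested.

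**Figure D3:**
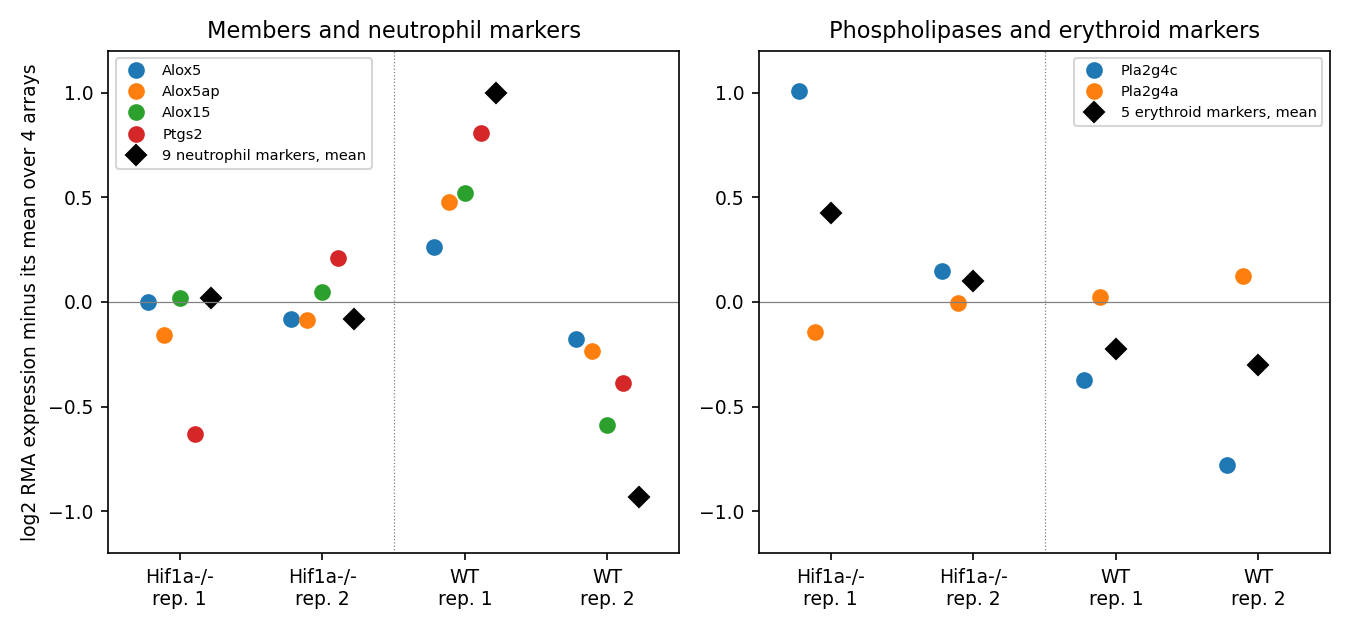
Log2 RMA expression minus its mean over the 4 arrays (y axis) on each array (x axis). On the left, Alox5, Alox5ap, Alox15 and Ptgs2 and the mean of 9 neutrophil markers (black diamonds) are all higher on WT replicate 1 than on WT replicate 2; on the right, Pla2g4c and the mean of 5 erythroid markers (black diamonds) are highest on Hif1a-/- replicate 1 and lowest on WT replicate 2, and Pla2g4a is lowest on Hif1a-/- replicate 1.

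Downstream of Alox5, Lta4h, the hydrolase that makes the granulocyte attractant leukotriene, read slightly lower in Hif1a-/- cells. It read 11.79 and 11.69 on Hif1a-/- replicates 1 and 2, against 12.01 and 11.94 on WT replicates 1 and 2. The groups did not overlap and the arrays of each genotype lay within 0.1 of each other. The difference was -0.24 ± 0.12 (SE), 1.18-fold, its 95% interval ran from -0.54 to 0.06, and the unadjusted limma p was 0.101. It kept its direction without any single array, from -0.29 to -0.19.

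Ltc4s, the synthase of the cysteinyl leukotrienes, read 8.84 and 8.94 on the Hif1a-/- arrays, against 8.76 and 8.83 on the WT arrays. The lower Hif1a-/- value was just above the higher WT value, and the difference of 0.10 ± 0.12 (SE) spanned 0 in its 95% interval from -0.20 to 0.40. With array medians set equal the difference was 0.07 and the groups overlapped. Among the processing and export genes of leukotrienes, 9 measured of 10 listed, 4 read higher and 5 lower and 0 passed the test. Mgst3, a microsomal glutathione transferase that can also conjugate leukotrienes, had the largest difference, 0.28, with 9.02 and 9.01 in Hif1a-/- cells, against 8.70 and 8.78 in WT cells.

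Of the receptors of the cysteinyl leukotrienes, Cysltr2 and Cysltr1 read lower in Hif1a-/- cells than in WT cells. Cysltr2 read 6.03 and 6.01 on Hif1a-/- replicates 1 and 2, against 6.52 and 6.55 on WT replicates 1 and 2. Arrays of each genotype nearly coincided, and the difference was -0.52 ± 0.12 (SE), 1.43-fold, with limma p of 0.00422 unadjusted and 0.999 adjusted over all genes. Cysltr2 was a dim gene, with a mean level at percentile 8.28 of all genes, so a filter at the 25th percentile removes it. The Cysltr2 difference was between -0.53 and -0.50 with each array left out in turn. Cysltr1 read 7.70 and 7.94 on the Hif1a-/- arrays, against 8.04 and 8.55 on the WT arrays, a difference of -0.47 (unadjusted limma p 0.0495) that was -0.22 without WT replicate 2. Oxgr1, reported as a further receptor of these leukotrienes and named after its values were seen, read 6.75 and 6.96 on the Hif1a-/- arrays, against 6.68 and 6.72 on the WT arrays. It lay above without overlap, by 0.16, or by 0.05 without Hif1a-/- replicate 2. Cysltr2 and Cysltr1 were the only 2 of the 71 measured genes of the wider pathway with an unadjusted p under 0.05, beside 1.68% of all genes in either direction and 0.978% lower. The leukotriene receptor Ltb4r1, named after its values were seen, read 10.27 and 10.12 in Hif1a-/- cells, against 11.02 and 9.73 in WT cells, with both Hif1a-/- values between the WT values, and differed by 0.46 without WT replicate 1 and by -0.82 without WT replicate 2.

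Mast cells carry cysteinyl leukotriene receptors and the enzymes Ltc4s and Hpgds, of which Ltc4s read higher (0.10) and Hpgds lower (-0.20) in Hif1a-/- cells. Like Cysltr2 and Cysltr1, markers of mast cells and basophils read lower in Hif1a-/- cells. The 10 markers averaged 11.02 and 11.39 on the Hif1a-/- arrays, against 11.67 and 11.64 on the WT arrays. All 10 had a lower mean in Hif1a-/- cells, 3 without overlap (9.05% of all genes lay below), from -1.30 for the chymase gene Mcpt4 to -0.02 for the basophil protease gene Prss34. Without WT replicate 1 only 6 of the 10 were lower, and Fcer1a (0.21), Ms4a2 (0.07), Hdc (0.10) and Prss34 (0.27), the first 3 named after their values were seen, were higher. Lower means were not particular to mast cells. Of monocyte and macrophage markers, 7 of 8 read lower, 1 without overlap. Of dendritic cell markers, 5 of 7 read lower, 4 without overlap, beside the same 9.05% of all genes. The median difference was -0.23 over mast cell and basophil, -0.28 over monocyte and -0.35 over dendritic cell markers. Monocyte markers ran from -0.87 for Ccr2 to 0.006 for Cx3cr1, and dendritic cell markers from -0.82 for Xcr1 to 0.19 for Siglech. Without Hif1a-/- replicate 1 only 4 of the 8 monocyte markers were lower. Of 4 measured eosinophil markers, 3 had a higher mean. Of the other lists, 4 of 6 megakaryocyte, 2 of 5 B cell, 5 of 6 T and NK cell and 2 of 6 sorted gate markers had a higher mean. The part of these cells in the receptor values was not tested.

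On the prostaglandin side, Ptgs2, the inducible cyclooxygenase, varied widely within both genotypes. It read 9.29 and 10.13 on Hif1a-/- replicates 1 and 2, against 10.72 and 9.53 on WT replicates 1 and 2. The groups overlapped, and the difference of -0.42 ± 0.42 (SE) had a 95% interval from -1.44 to 0.60. It was -1.01 without WT replicate 2 (adjusted limma p 0.00600) and 0.18 without WT replicate 1, and it was 0.0019 without Hif1a-/- replicate 1 and -0.84 without Hif1a-/- replicate 2, so its direction changed with single arrays of both genotypes.

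Hpgds, the prostaglandin D synthase of blood cells, read 7.003 and 7.16 on the Hif1a-/- arrays, against 7.12 and 7.42 on the WT arrays. The groups overlapped, and the difference was -0.20 ± 0.15 (SE), or -0.35 without WT replicate 1 and -0.05 without WT replicate 2. Of the other prostanoid synthases, transporters and removing enzymes, 11 measured of 12 listed, 6 read higher and 5 lower, from -0.09 for the thromboxane synthase Tbxas1 to 0.24 for the prostaglandin transporter Slco2a1 (0.09 without WT replicate 2), and 0 passed the test.

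Of 9 prostanoid receptors, 6 read lower and 3 higher in Hif1a-/- cells and 0 passed the test. Ptger4, a receptor of prostaglandin E, had the largest difference, -0.29, with 9.84 and 9.60 on the Hif1a-/- arrays, against 10.0015 and 10.01 on the WT arrays. Its groups did not overlap, and it differed by -0.17 without Hif1a-/- replicate 2. The remaining roles showed no gene without overlap other than Alox12b (0.20), a skin lipoxygenase, and Ephx1 (0.08), an epoxide hydrolase named after its values were seen. Fads2, a desaturase of arachidonate synthesis, differed by 0.27 and Cyp4a12a, a fatty acid hydroxylase, by -0.45, both with overlap. With single arrays left out, Fads2 ran from -0.06 without WT replicate 1 to 0.61 without WT replicate 2, and Cyp4a12a from -0.73 without Hif1a-/- replicate 1 to -0.18 without Hif1a-/- replicate 2.

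Across the wider pathway 34 of 71 measured genes read higher and 37 lower in Hif1a-/- cells, with a median difference of -0.01. Of these, 9 lay above and 8 below without overlap, beside 15.7% and 9.05% of all genes. None passed the test adjusted over all genes. The gap between the WT arrays was larger than the difference between genotypes in 81.7% of the 71 genes, beside 75.5% of all genes. That gap was larger in 5 of the 9 members as well, the exceptions being Pla2g4a, Pla2g4c, Lta4h and Ltc4s.

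**Figure D4:**
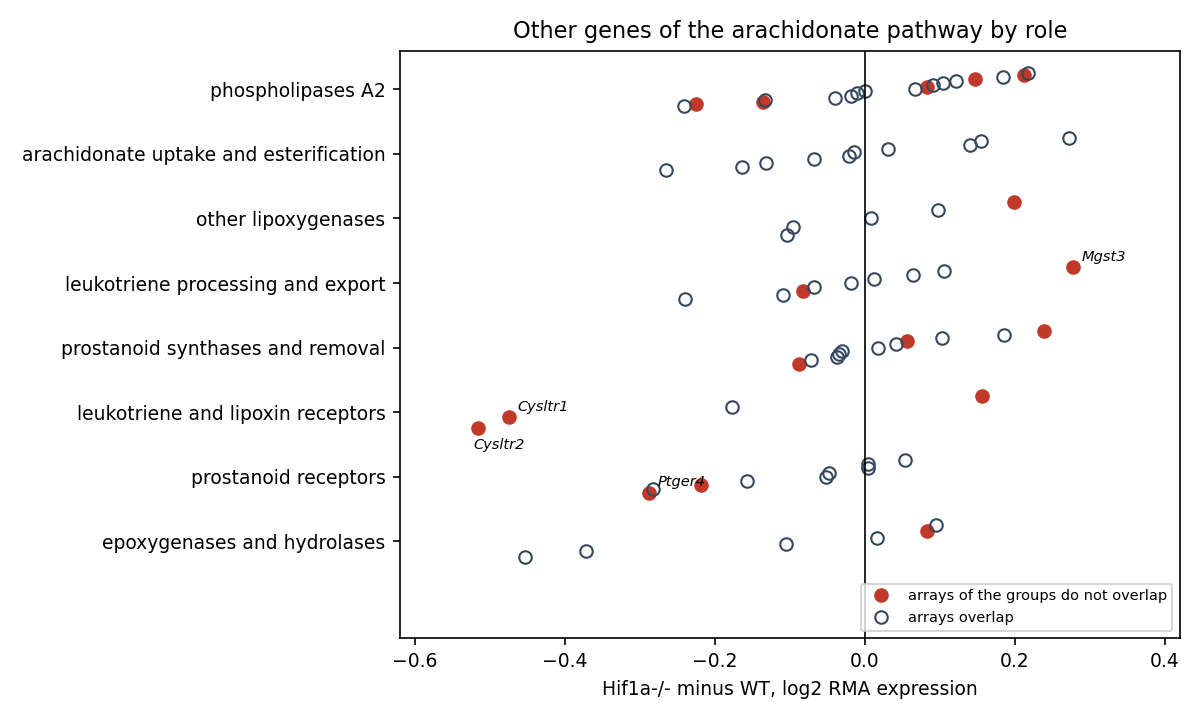
Hif1a-/- minus WT difference in log2 RMA expression (x axis) for the 71 measured genes of the wider pathway, grouped by role (y axis, genes sorted within each role). Filled points are genes whose Hif1a-/- and WT arrays do not overlap and open points are genes whose arrays overlap; Cysltr2 and Cysltr1 lie furthest to the left, at -0.52 and -0.47.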

How the data were processed

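Total RNA of 4 sorted cell samples was hybridised to 1 array each. Per the submitters' processing notes, the authors deposited log2 values made with Affymetrix Expression Console 1.1 and RMA. The sources used here give no further settings. The deposited log2 table held 35556 probe sets, of which 21789 carried 1 gene symbol in the platform annotation, 1621 several and 12146 none. Sets with 1 symbol were kept, with the highest-mean set per gene, which left 19938 genes. Each gene was fitted by lmFit and eBayes (limma 3.58.1, R 4.3.3) on genotype alone, with Benjamini-Hochberg adjustment over all genes, on 2 residual and 4.46 prior degrees of freedom. The number of arrays limits the precision, with a median standard error of 0.14. Members, lists and tests were chosen with earlier results of these data known. Gene lists were looked up by symbol or RefSeq synonym. The text names all members and the gene with the largest difference or an unadjusted p under 0.05 in each pathway role. It also names the extreme genes of the neutrophil, erythroid, mast cell, monocyte, dendritic cell and sorted gate marker lists. On simulated data for 19938 genes, 59.1% of planted 2-fold and 98.6% of planted 4-fold changes were recovered, beside a mean of 8.6 false calls. These rates belong to the simulated data and are no measure of what these arrays can detect. On these arrays Bnip3, 2.44-fold lower in Hif1a-/- cells, had an adjusted limma p of 0.239. In all, 13 alternatives were run, covering filters, normalization, a floor, variance models, probe set means, the replicate block and each array left out.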

Additional observations from a re-analysis of the deposited data

How the results depend on the processing

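Among 13 alternatives, the filters, both normalizations, the floor and the mean of probe sets left 0 genes called, 0 of them members, and member medians between -0.18 and -0.08. With the floor, the difference of Pla2g4c stayed 1.15, but its unadjusted limma p was 0.0963, against 0.00637 in the main fit. An intensity trend gave 1 called gene and a robust trend 2, with no member among them. With the replicate number as a block, 47 genes were called, 1 of them a member (Pla2g4c, difference 1.15, adjusted p 2.19e-05) and 0 of the wider pathway; in that fit 1 residual degree of freedom was left and limma gave every gene the same variance, and same-numbered arrays did not deviate together (correlation of deviations from the group means -0.0072 over genes). Leaving out each array in turn gave 2 to 1442 called genes, 0 to 4 called members, 0 to 10 called genes of the wider pathway, 3 to 7 members with a lower mean and member medians from -0.27 to 0.11. Most calls arose without a WT array (349 without WT replicate 1 and 1442 without WT replicate 2), where the spread comes from the Hif1a-/- arrays alone and the lone WT array is assumed to vary like them. Pla2g4c was then called at an adjusted p of 0.00175 and 0.0102, and Alox5ap without WT replicate 2 (difference -0.60, adjusted p 0.00865). Over the arrays left out, the difference ranged from -0.30 to 0.14 for Alox5, -0.60 to 0.11 for Alox5ap, -0.49 to 0.62 for Alox15 and -1.01 to 0.18 for Ptgs2, and that of Pla2g4c from 0.72 to 1.58. Pla2g4a, Pla2g4c, Lta4h, Ltc4s and Hpgds kept their direction throughout, except that Hpgds lay at the floor on all arrays in 1 alternative and was filtered out in 2, and has no value there. At an unadjusted p under 0.05, the count of 334 genes ranged from 94 to 3628 when an array was left out. The cause of these shifts was not tested further.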
